A study of Mus musculus with 4 samples.

Results

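The 37 genes described here build, coat and break down the fat droplet of the adipocyte, make its fatty acids, or are secreted or sensed by it: Plin1, Plin2, Plin4, Plin5, Cidec, Adipoq, Cfd, Lep, Retn, Lpl, Lipe, Pnpla2, Pnpla3, Dgat1, Dgat2, Gpam, Agpat2, Gpd1, Acsl1, Pck1, Acaca, Acacb, Fasn, Scd1, Acly, Elovl6, Thrsp, Mlxipl, Srebf1, Fabp4, Car3, Cdo1, Adipor2, Ghr, Ptger3, Acvr1c and Prkar2b. They were chosen by symbol, and all 37 were found among the 21884 genes of the deposited matrices, each with at least 1 UMI (a counted RNA molecule) in every library. Nuclear RNA was counted nucleus by nucleus in 4 whole hearts, with 1 heart in each library. All hearts came from male wild-type C57BL/6J mice whose own heart was injured at postnatal day 1 and taken 21 days after the injury. Injured-father libraries 1 and 2 are from offspring of injured fathers, and uninjured-father libraries 1 and 2 from offspring of uninjured fathers. The labels do not state the kind of injury, nor which father or litter each heart came from, so p-values measure the spread between these hearts only.

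An adipocyte stores triglyceride in a single large droplet or, in brown fat, in many small ones. Perilipins and CIDEC coat the droplet and limit access of lipases. Triglyceride is made by adding fatty acids, taken up from blood lipoproteins or synthesised from glucose, to a glycerol phosphate backbone, and it is released again by a chain of lipases under hormonal control. A healthy heart burns fatty acids more than it stores them, and its fat cells lie mostly around the vessels and under the epicardium.

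After filters, 8251 and 9537 nuclei were kept in injured-father hearts 1 and 2, and 9416 and 6791 in uninjured-father hearts 1 and 2. The median depth per nucleus was 2129 and 2665 UMIs in the injured-father libraries, against 2527.5 and 1860 UMIs in the uninjured-father libraries. Uninjured-father library 2 was the shallowest and had the most nuclei marked as doublets, 14.9% against 9.62% to 9.93% in the other libraries. Pairs of libraries shared 23 to 33 cell barcodes, at most 0.403% of either library. Levels below are UMIs of a gene per 1000000 UMIs of the nuclei summed (CPM). They are not corrected for gene length, so they are compared within a gene and not between genes.

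The promoters of 3 of the genes are shown because each stands for a pattern below: Adipoq was counted mainly in adipocyte-like nuclei and was higher in both injured-father hearts, Fasn differed between the 2 injured-father hearts, and Acacb had a high level in cardiomyocyte-like nuclei as well. Each sequence holds the 250 bases before the RefSeq start of the gene (GRCm38.p6), 5′ to 3′ on the strand of the gene, at chr16:23146286-23146535 (plus strand) for Adipoq, chr11:120824548-120824797 (minus strand) for Fasn and chr5:114165268-114165517 (plus strand) for Acacb. The GENCODE annotation places the first start of Acacb further upstream. Capitals mark CCAAT, read on either strand, and in Acacb also the TATA box TATAAA.
Adipoq: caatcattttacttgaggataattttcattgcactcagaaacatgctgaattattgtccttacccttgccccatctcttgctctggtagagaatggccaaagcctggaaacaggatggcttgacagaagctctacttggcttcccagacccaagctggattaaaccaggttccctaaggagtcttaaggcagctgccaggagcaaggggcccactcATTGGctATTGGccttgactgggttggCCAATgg
Fasn: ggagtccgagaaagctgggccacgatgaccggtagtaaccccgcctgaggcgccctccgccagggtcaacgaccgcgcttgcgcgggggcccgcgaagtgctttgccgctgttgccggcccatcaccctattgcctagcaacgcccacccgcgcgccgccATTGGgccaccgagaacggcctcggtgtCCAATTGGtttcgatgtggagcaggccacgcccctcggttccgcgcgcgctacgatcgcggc
Acacb: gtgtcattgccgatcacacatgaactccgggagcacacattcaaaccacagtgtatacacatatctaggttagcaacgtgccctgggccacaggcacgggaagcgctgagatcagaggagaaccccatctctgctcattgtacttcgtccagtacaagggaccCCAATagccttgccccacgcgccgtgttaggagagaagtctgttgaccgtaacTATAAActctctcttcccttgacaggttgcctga

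Promoters were found for 29 of the 37 genes, as 40 RefSeq entries. In these 250-base windows, searched on both strands, TTGCNNAA, a motif of the C/EBP factors, stood in 3 of the 40 entries (7.5%). Over all 32851 RefSeq promoters its share was 9.56%. The genes with the motif were Plin1, Cidec and Lep. Plin1 held it at 187 to 180 and at 58 to 51 bases before the start. CCAAT stood in 15 of the 40 entries (37.5%), which belong to 13 genes, and in 33.9% of all promoters. Adipoq held it 3 times within 34 bases of its start. Fasn held it 3 times between 90 and 55 bases before its start, where 2 copies on opposite strands share bases. TATAAA stood in 2 entries (5.0%), of Acacb and Ghr, and in 12.4% of all promoters. TCACNCCAC, a motif of the SREBP factors, stood in 2 entries (5.0%), of Acsl1 and Mlxipl, and in 1.05% of all promoters. The direct repeat bound by PPARG with its partner RXR, that is 2 copies of AGGTCA set 1 base apart, was in none of the 40 windows. Neither was its loose form with AGGNCA, which is in 0.338% of all promoters. A match gives letters in a window, not a site in use.

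Adipocyte-like nuclei were the main place of these genes. The class was found by clustering the nuclei without the 37 genes and was named from 11 other adipocyte markers, all of which were detected in it. Pparg, the master regulator of fat cells, stood at 3562 CPM in the class over the 4 libraries and at 98.7 CPM in all other nuclei. The class held 173 of 8251 nuclei (2.10%, exact 95% interval 1.80% to 2.43%) in injured-father heart 1 and 111 of 9537 (1.16%, 0.958% to 1.40%) in injured-father heart 2. It held 18 of 9416 nuclei (0.191%, 0.113% to 0.302%) in uninjured-father heart 1 and 7 of 6791 (0.103%, 0.0415% to 0.212%) in uninjured-father heart 2. Both injured-father shares lay above both uninjured-father shares, with a log2 fold change of 3.42 ± 0.51 (SE, n = 2 each; edgeR quasi-likelihood test, adjusted p = 0.0363 over 14 classes). The call was lost without injured-father library 1 (adjusted p = 0.0631), without uninjured-father library 1 (0.114) or without uninjured-father library 2 (0.257), and with doublets kept (0.0532). Mesothelial or epicardial-like nuclei, of the surface of the heart, moved the same way: they were 53 and 60 nuclei (0.642% and 0.629%) in injured-father hearts 1 and 2, against 9 and 6 nuclei (0.0956% and 0.0884%) in uninjured-father hearts 1 and 2, and their part in the adipocyte-like difference was not tested. Nuclei of epicardial or perivascular fat on the excised heart and fat within the muscle cannot be told apart in these files.

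Of the 37 genes, 36 had their highest level in adipocyte-like nuclei and only Fabp4 had it elsewhere, in vascular endothelial-like nuclei, under every clustering tried. This is a description, since the nuclei of the class were grouped by genes that go with these. In the adipocyte-like nuclei together the 37 genes made up 46789 and 43349 CPM in injured-father libraries 1 and 2, and 32029 and 47523 CPM in uninjured-father libraries 1 and 2. The groups overlapped. The values of uninjured-father library 2 rest on 7 nuclei and 14814 UMIs, and those of uninjured-father library 1 on 18 nuclei and 47800 UMIs.

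**Figure D1:**
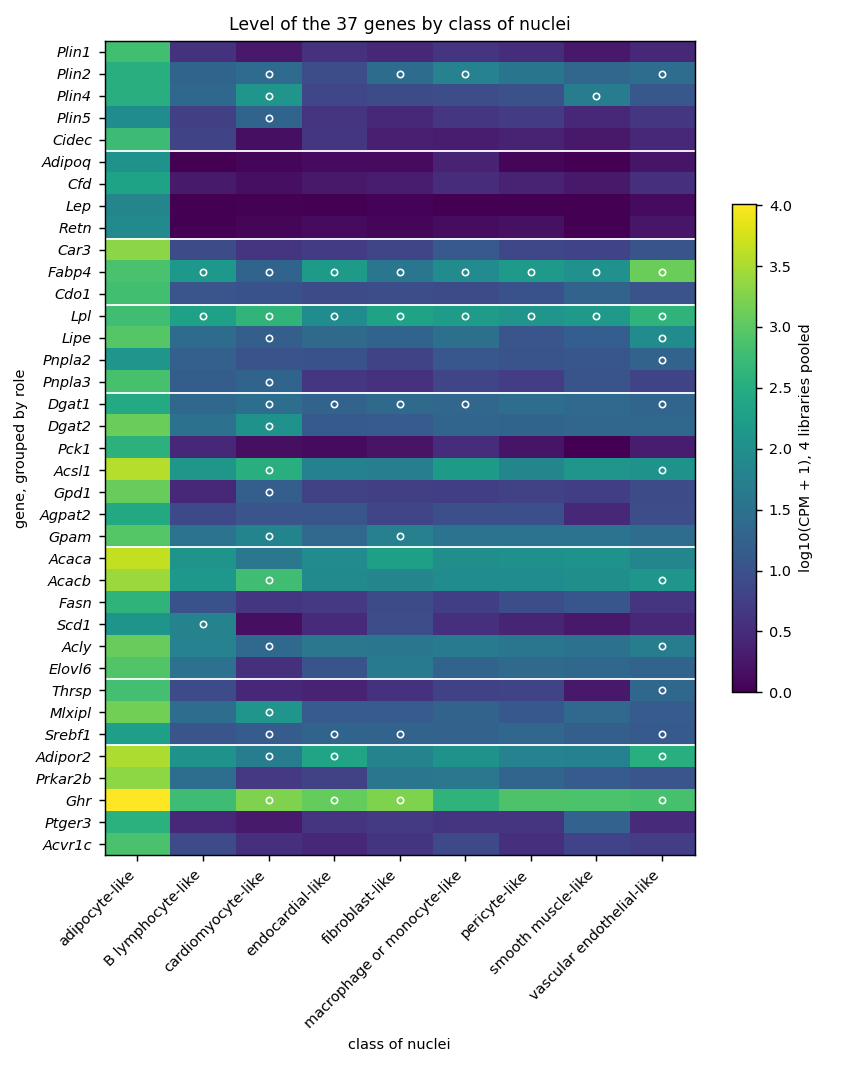
Level of each of the 37 genes (rows, by role, separated by white lines) in adipocyte-like nuclei and in the 8 classes with at least 50 nuclei in every library (columns), as log10(CPM + 1) with the 4 libraries pooled. White circles mark the 56 pairs of gene and class with expression of its own outside adipocyte-like nuclei; the adipocyte-like column is the brightest in 36 of 37 rows.

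Among the droplet coats, Plin1, the perilipin of adipocytes, had 542 and 705 CPM in adipocyte-like nuclei of injured-father libraries 1 and 2, against 544 and 810 CPM in those of uninjured-father libraries 1 and 2. Cidec, which lets droplets fuse into larger ones, had 577 and 541 CPM in the injured-father libraries, against 481 and 608 CPM in the uninjured-father libraries. Relative to all RNA counted in the class, both coats overlapped between the groups. Plin2, the coat of droplets in most cell types, had 505 and 164 CPM in the injured-father libraries, against 83.7 and 270 CPM in the uninjured-father libraries, which rest on 4 UMIs in each.

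Of the secreted proteins, adiponectin (Adipoq) had 68.2 and 173 CPM in injured-father adipocyte-like nuclei, against 0 and 67.5 CPM (0 and 1 UMIs) in uninjured-father ones. With 47800 UMIs in that class of uninjured-father library 1, a count of 0 allows up to 62.8 CPM. Adipsin (Cfd), a serine protease of the complement system, had 113 and 332 CPM in injured-father nuclei, against 230 and 135 CPM in uninjured-father nuclei. Leptin (Lep), the satiety hormone, had 43 and 18 UMIs in the injured-father libraries, against 5 and 1 UMIs in the uninjured-father libraries (log2 fold change -0.41 ± 0.79, edgeR adjusted p = 0.971). Resistin (Retn) had 18 and 57 UMIs, against 2 and 7 UMIs (-0.83 ± 0.94, edgeR adjusted p = 0.969). In the class 3 UMIs made 5.85 and 6.73 CPM in the injured-father libraries, against 62.8 and 203 CPM in the uninjured-father libraries. Relative to all RNA of the class, both folds were thus negative. These hormones were therefore thinly counted in the class, and Adipoq was not counted there in uninjured-father library 1.

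Car3, a carbonic anhydrase abundant in fat and slow muscle, differed more between hearts of 1 group than between groups: 1035 and 3219 CPM in injured-father libraries 1 and 2, against 1234 and 3578 CPM in uninjured-father libraries 1 and 2. Prkar2b, a regulatory subunit of protein kinase A through which catecholamines start lipolysis, was even, with 2328 and 1928 CPM in the injured-father libraries, against 2155 and 2160 CPM in the uninjured-father libraries. Acsl1, which activates fatty acids by joining them to coenzyme A, had 3058 and 4507 CPM in the injured-father libraries, against 3013 and 3375 CPM in the uninjured-father libraries. Ghr, the growth hormone receptor, spread widely, with 7572 and 13183 CPM in the injured-father libraries, against 9017 and 20859 CPM in the uninjured-father libraries.

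The lipase genes showed no common direction. Lipe (hormone-sensitive lipase) had 913 and 947 CPM in injured-father adipocyte-like nuclei, against 565 and 878 CPM in uninjured-father ones. Pnpla2 (adipose triglyceride lipase), which takes the first fatty acid off triglyceride, had 93.6 and 166 CPM in injured-father nuclei, against 105 and 203 CPM in uninjured-father nuclei. Lpl, which frees fatty acids from lipoproteins at the vessel wall, had 636 and 541 CPM in injured-father nuclei, against 711 and 1013 CPM in uninjured-father nuclei, so here both injured-father libraries stood below both uninjured-father libraries. Pnpla3, a lipase and acyltransferase of the same family as Pnpla2, had 786 and 606 CPM in injured-father nuclei, against 439 and 945 CPM in uninjured-father nuclei.

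The smallest p-values in the class belonged to genes of fatty acid synthesis and its control. Acacb, which makes malonyl-CoA at the mitochondrial surface, had 3354 and 1800 CPM in injured-father adipocyte-like nuclei, against 1088 and 473 CPM in uninjured-father ones (log2 fold change 1.82 ± 0.58, SE, n = 2 each; edgeR adjusted p = 0.910). Acaca, the cytosolic enzyme of the committed step, had 5828 and 2956 CPM in the injured-father libraries, against 1967 and 1890 CPM in the uninjured-father libraries (1.42 ± 0.54, edgeR adjusted p = 0.910). Mlxipl (ChREBP), a factor that turns lipid synthesis genes on when glucose is plentiful, had 1913 and 1044 CPM in the injured-father libraries, against 732 and 675 CPM in the uninjured-father libraries (1.28 ± 0.51, edgeR adjusted p = 0.910). In all 3 genes the groups did not overlap, and these were the 3 smallest p-values among the 37.

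In this fit edgeR called 0 of the 37 genes, and 0 of 5162 genes tested (0% in either direction). At an unadjusted p under 0.05 stood 6 of the 37 genes and 264 of all genes, and limma-voom and DESeq2 also called 0 of the 37. The median log2 fold change was 0.52 over the 37 genes and 0.15 over all genes tested. The fold was positive for 30 of the 37, and the share of positive folds over all genes is not given here. The groups did not overlap for 11 of the 37 genes (29.7%), against 38.2% of all genes tested. In both injured-father libraries the level exceeded that of both uninjured-father libraries for 10 of the 37 genes, against 18.2% of all genes tested. Marker genes of cardiomyocytes, 10 in all with none at 0, summed to 3931 and 4173 CPM in these nuclei in the injured-father libraries. In the uninjured-father libraries they summed to 9854 and 5333 CPM. In the same order of libraries, fibroblast markers had 690 and 1636 CPM, against 711 and 3375 CPM. The B lymphocyte list, which holds Ebf1, had 2504 and 4458 CPM, against 3515 and 7628 CPM. The 11 adipocyte markers had 6049 and 5329 CPM, against 5146 and 8100 CPM. The part of other classes' markers in the folds was not tested. Without injured-father library 2 the fit called Elovl6 and Acly higher.

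The 2 injured-father hearts, whose adipocyte-like nuclei held 512832 and 445504 UMIs, could be compared gene by gene with counting error only. All 6 fatty acid synthesis genes were higher in injured-father library 1 than in library 2, by 1.86-fold to 11.9-fold. Elovl6, which lengthens palmitate to stearate, had 1521 CPM in library 1 and 128 CPM in library 2 (ratio 11.9, exact 95% interval 9.08 to 15.8). Acly, which makes acetyl-CoA from citrate in the cytosol, had 2155 and 240 CPM (ratio 8.97, 7.35 to 11.0). Scd1, which puts a double bond into stearate, had 174 and 42.6 CPM (4.07, 2.46 to 7.07), and Fasn, the fatty acid synthase, 624 and 191 CPM (3.27, 2.57 to 4.20).

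The regulators of this pathway went the same way. Thrsp (Spot14), a nuclear protein induced with lipid synthesis, had a ratio of 2.30 (1.92 to 2.76), Srebf1, the sterol-regulated transcription factor, 2.19 (1.57 to 3.10) and Mlxipl 1.83 (1.64 to 2.05). Gpd1, which supplies glycerol phosphate from glucose, had 1854 CPM in library 1 and 566 CPM in library 2 (ratio 3.28, 2.85 to 3.78). Plin2 had a ratio of 3.08 (2.37 to 4.05).

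Of the other genes, some were lower in injured-father library 1 than in library 2 and some were higher. Car3 had a ratio of 0.322 (0.291 to 0.356), Cfd 0.340 (0.247 to 0.464), Adipoq 0.395 (0.257 to 0.596) and Retn 0.274 (0.152 to 0.473). Pck1, which feeds glycerol synthesis from pyruvate in fat, had a ratio of 0.433 (0.344 to 0.542). Lep, secreted like Cfd, Adipoq and Retn, went the other way with a ratio of 2.08 (1.17 to 3.82). So did Agpat2 (1.88, 1.43 to 2.48), Adipor2 (1.62, 1.51 to 1.75) and Dgat2 (1.58, 1.41 to 1.78). The lipase genes Lpl and Lipe and the coat gene Cidec had intervals that include 1. Across the 37 genes, 18 had an interval wholly above 1 and 14 wholly below it. The same count was not made over all genes, so these numbers do not set the 37 genes apart. The brown fat gene Ucp1, whose protein uncouples respiration to make heat, was counted at 665 CPM (341 UMIs) in library 1 and 98.8 CPM (44 UMIs) in library 2, against 146 and 135 CPM in uninjured-father libraries 1 and 2; its part in the differences was not tested. The 2 hearts are replicates of 1 group, so these ratios describe 2 animals and not a condition.

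**Figure D2:**
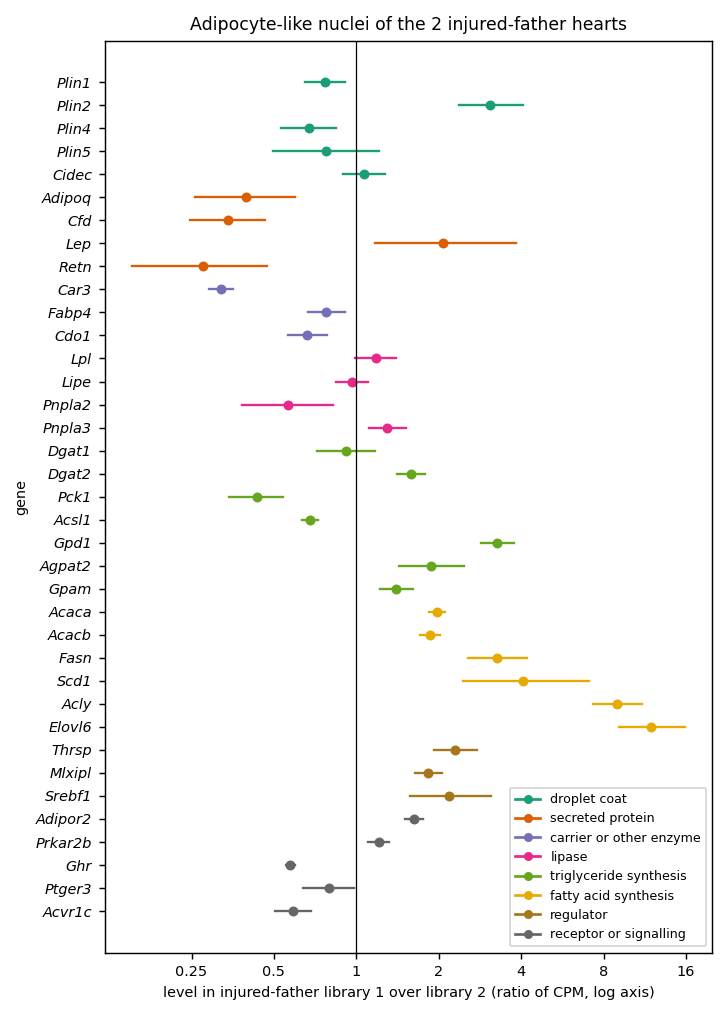
Level in adipocyte-like nuclei of injured-father library 1 over that of injured-father library 2 (x axis, ratio of CPM, log scale) for the 37 genes (y axis), coloured by role; points are ratios and lines exact 95% counting intervals. The fatty acid synthesis genes and their regulators lie right of 1, from 1.83 for Mlxipl to 11.9 for Elovl6. Car3, Cfd, Adipoq and Retn lie left of 1, from 0.274 for Retn to 0.395 for Adipoq, while Lep lies right of 1 at 2.08.

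Outside adipocyte-like nuclei the 37 genes fell into 2 kinds. A gene was read as having its own expression in a class when, in all 4 libraries, it reached 10 CPM and its level there relative to adipocyte-like nuclei was over 5 times that of 7 trace genes (Adipoq, Plin1, Cidec, Trarg1, Adrb3, Slc7a10 and Tshr) summed in the same nuclei. By this rule 21 genes had their own expression in at least 1 of the 8 classes read, and 16 fell short of it in every class, which does not show that they are silent there. Plin1, Cidec and Adipoq are themselves among the 7 trace genes, so the rule largely fixed that they would fall short. Since the rule is relative to adipocyte-like nuclei, some genes well counted elsewhere also fell short. In fibroblast-like nuclei Acaca had 166 to 212 CPM over the 4 libraries, and Elovl6 had 31.1 to 49.8 CPM. In uninjured-father libraries 1 and 2, 3.67% and 2.40% of Acaca UMIs lay in adipocyte-like nuclei. The trace genes themselves were not equally low in every class. In pericyte-like nuclei they summed to 61.6 and 70.4 CPM in injured-father libraries 1 and 2, against 54.1 and 45.2 CPM in uninjured-father libraries 1 and 2. This made the rule harder to meet there, and Ghr fell short in pericyte-like nuclei at 731 to 842 CPM, as did Dgat1 at 25.6 to 28.9 CPM. Over 10 other settings of the rule and of the clustering, 13 genes met the rule throughout, 10 never did, and 14 depended on the setting. The 10 that never met it were Plin1, Cidec, Adipoq, Cfd, Car3, Fasn, Pck1, Lep, Retn and Acvr1c. The 13 that always did were Plin2, Plin4, Lpl, Lipe, Dgat1, Dgat2, Acacb, Mlxipl, Fabp4, Acsl1, Gpam, Adipor2 and Ghr.

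Lpl and Fabp4 had their own expression in all 8 classes. Lpl ranged over the 4 libraries from 352 to 520 CPM in cardiomyocyte-like nuclei and from 283 to 498 CPM in vascular endothelial-like nuclei. Fabp4, a carrier of fatty acids in fat cells, capillary endothelium and macrophages, ranged from 1007 to 1515 CPM in vascular endothelial-like nuclei and from 12.7 to 25.6 CPM in cardiomyocyte-like nuclei. The endothelial range lay above the 540 to 813 CPM of adipocyte-like nuclei.

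Cardiomyocyte-like nuclei had their own expression of storage and sensing genes, in part shared with other classes. Plin4, a coat protein of muscle and fat, had 72.6 to 158 CPM there, and Plin5, which tethers droplets to mitochondria, had 14.8 to 23.4 CPM. Acacb had 538 to 673 CPM, Dgat2, which adds the last fatty acid of triglyceride, 93.9 to 122 CPM, and Mlxipl 100.4 to 154 CPM. Acsl1 had 302 to 358 CPM and Gpam, the first acyltransferase of the pathway, 57.9 to 67.9 CPM. Plin5, Dgat2, Mlxipl, Gpd1 and Pnpla3 were read as own expression in cardiomyocyte-like nuclei and in no other of the 8 classes. At a 20 CPM minimum Plin5, Gpd1 and Pnpla3 met the rule in no class. Acacb and Acsl1 also met the rule in vascular endothelial-like nuclei, Plin4 in smooth muscle-like nuclei and Gpam in fibroblast-like nuclei.

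Vascular endothelial-like nuclei had Lipe at 65.6 to 108 CPM, Acly at 39.9 to 62.5 CPM and Adipor2, an adiponectin receptor, at 263 to 398 CPM. Ghr reached 1412 to 1887 CPM in cardiomyocyte-like nuclei and 1530 to 1968 CPM in fibroblast-like nuclei. Scd1 stood at 48.1 to 73.4 CPM in B lymphocyte-like nuclei, the only class of the 8 in which it met the rule, although this was lost under the stricter nucleus filter. In fibroblast-like nuclei Scd1 had 7.55 to 9.85 CPM, at 7.36 to 15.7 times the relative level of the trace genes. It missed the rule there only by the 10 CPM minimum. Plin2 was highest outside fat in macrophage or monocyte-like nuclei, at 46.3 to 75.3 CPM.

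The share of a gene's UMIs that lay in adipocyte-like nuclei ranged widely, and the 2 kinds overlapped in it. For Plin1 it was 83.7% (exact 95% interval 79.3% to 87.5%) and 81.1% (76.9% to 84.9%) in injured-father libraries 1 and 2, against 72.2% (54.8% to 85.8%) and 46.2% (26.6% to 66.6%) in uninjured-father libraries 1 and 2. For Lpl it was 5.41% and 1.91% in the injured-father libraries, against 0.38% and 0.27% in the uninjured-father libraries. For Acly it was 52.6% and 9.94% in the injured-father libraries, against 2.13% and 0.868% in the uninjured-father libraries, so most Acly UMIs of injured-father heart 1 came from 2.10% of its nuclei. Gpd1, which met the rule in cardiomyocyte-like nuclei, had 73.3% and 47.6% in the injured-father libraries, against 7.69% and 10.7% in the uninjured-father libraries. Fasn, which met it in no class, had 61.4% and 40.7% in the injured-father libraries, against 6.31% and 8.57% in the uninjured-father libraries, so in uninjured-father hearts most of its UMIs lay outside adipocyte-like nuclei. All intervals cover counting error only.

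**Figure D3:**
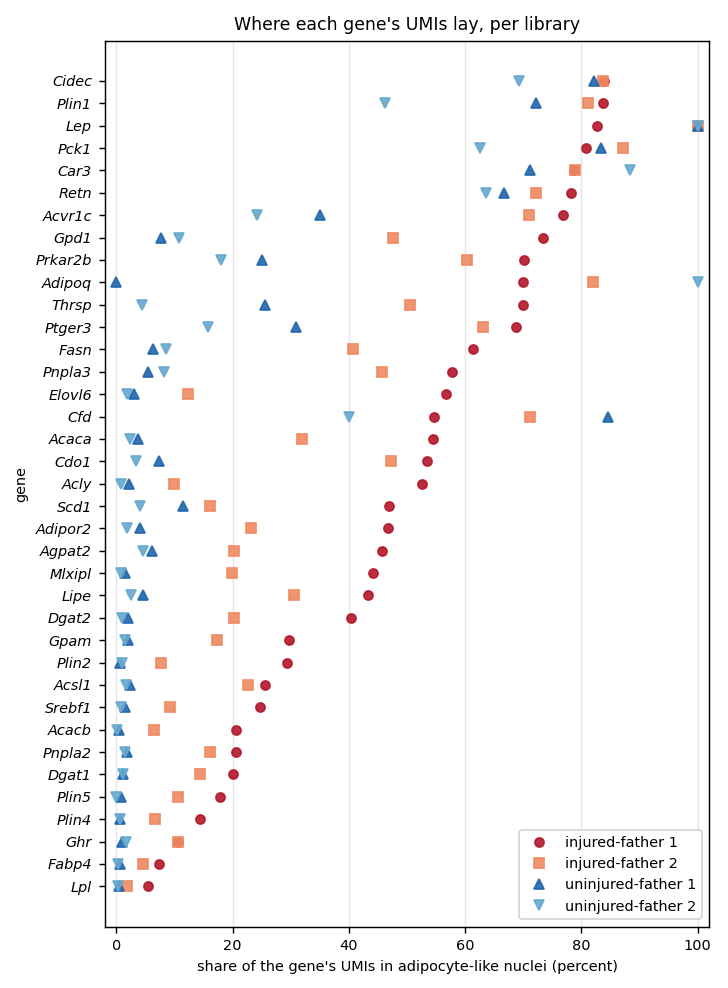
Share of each gene's UMIs that lay in adipocyte-like nuclei (x axis, percent) for the 37 genes (y axis, in the order of injured-father library 1), 1 point per library. Plin1, Cidec, Car3 and Pck1 lie at 62.5% or above in every library, except Plin1 in uninjured-father library 2 (46.2%), although the class is at most 2.10% of nuclei, while Lpl and Fabp4 reach at most 7.36%.

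With all nuclei of a heart summed, the fat cell genes were higher in the hearts of injured-father offspring. In such sums more nuclei of a class and more RNA per nucleus cannot be told apart, except where the class itself was measured as above. The 37 genes together made up 3976 and 3940 CPM in injured-father libraries 1 and 2, against 3072 and 3029 CPM in uninjured-father libraries 1 and 2. With adipocyte-like nuclei left out they made up 3023 and 3399 CPM in the injured-father libraries, against 3028 and 2987 CPM in the uninjured-father libraries, and the groups overlapped.

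In all nuclei 10 of the 37 genes were called higher and 0 lower, against 0.101% of 14891 genes called higher and 0% called lower (edgeR quasi-likelihood test, adjusted p under 0.05). In both injured-father libraries the level exceeded that of both uninjured-father libraries for 28 of the 37, against 20.5% of all genes. The median log2 fold change was 1.02 over the 37 genes and -0.01 over all genes tested. The 10 genes called were Plin1, Cidec, Adipoq, Cfd, Car3, Pck1, Acvr1c, Ptger3, Prkar2b and Cdo1, of which the first 7 are among those that never met the rule for own expression elsewhere.

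Plin1 (ENSMUSG00000030546, chr7:79720218-79732903, minus strand, GRCm38) had 14.1 and 11.8 CPM in all nuclei of injured-father libraries 1 and 2, against 1.14 and 1.66 CPM in those of uninjured-father libraries 1 and 2 (log2 fold change 3.23 ± 0.24, SE, n = 2 each; edgeR adjusted p = 0.0127). Cidec (ENSMUSG00000030278, chr6:113424634-113435760, minus strand) had 15.0 and 8.76 CPM in the injured-father libraries, against 0.890 and 0.831 CPM in the uninjured-father libraries (3.73 ± 0.34, adjusted p = 0.0147). Both coats stood far above the spread within a group.

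Adipoq (ENSMUSG00000022878, chr16:23146536-23158028, plus strand) had 50 and 94 UMIs in all nuclei of the injured-father libraries (2.12 and 2.86 CPM), against 2 and 1 UMIs in the uninjured-father libraries (0.0636 and 0.0639 CPM). The ratio of the summed counts was 40.1, with an exact 95% interval of 13.5 to 197 for counting error (edgeR adjusted p = 0.0221). Cfd had 4.5 and 6.33 CPM in the injured-father libraries, against 0.413 and 0.319 CPM in the uninjured-father libraries (log2 fold change 3.80 ± 0.37, edgeR adjusted p = 0.0185). Car3 had 28.7 and 55.3 CPM in the injured-father libraries, against 2.64 and 3.83 CPM in the uninjured-father libraries (3.73 ± 0.36, edgeR adjusted p = 0.0181).

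Pck1 had 6.20 and 8.28 CPM in the injured-father libraries, against 0.953 and 0.511 CPM in the uninjured-father libraries (3.18 ± 0.36, edgeR adjusted p = 0.0354). Acvr1c (ALK7), an activin-type receptor of fat cells, had 15.6 and 17.9 CPM in the injured-father libraries, against 2.54 and 1.85 CPM in the uninjured-father libraries (2.86 ± 0.23, edgeR adjusted p = 0.0127). Ptger3, a receptor for prostaglandin E that lowers cyclic AMP, had 10.3 and 8.82 CPM in the injured-father libraries, against 1.33 and 1.21 CPM in the uninjured-father libraries (2.86 ± 0.24, edgeR adjusted p = 0.0127). In each of these receptors the 2 hearts of a group lay close together and far from the other group.

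Prkar2b had 72.4 and 43.3 CPM in the injured-father libraries, against 13.1 and 11.3 CPM in the uninjured-father libraries (2.21 ± 0.24, edgeR adjusted p = 0.0308). Cdo1, cysteine dioxygenase, had 21.2 and 22.5 CPM in the injured-father libraries, against 7.37 and 7.48 CPM in the uninjured-father libraries (1.54 ± 0.15, edgeR adjusted p = 0.0181), the smallest fold of the 10. Of the 21 genes with own expression elsewhere, none was called; 13 had both injured-father libraries above both uninjured-father libraries and 8 overlapped. Adipor2 had 189 and 146 CPM in the injured-father libraries, against 89.0 and 90.5 CPM in the uninjured-father libraries (0.88 ± 0.13, edgeR adjusted p = 0.114). Acsl1 had 260 and 269 CPM in the injured-father libraries, against 191 and 199.9 CPM in the uninjured-father libraries (0.42 ± 0.10, edgeR adjusted p = 0.392). Lpl had 256 and 384 CPM in the injured-father libraries, against 285 and 355 CPM in the uninjured-father libraries (-0.01 ± 0.20, edgeR adjusted p = 0.997). Acacb had 355 and 376 CPM in the injured-father libraries, against 349 and 302 CPM in the uninjured-father libraries (0.14 ± 0.14, edgeR adjusted p = 0.922).

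**Figure D4:**
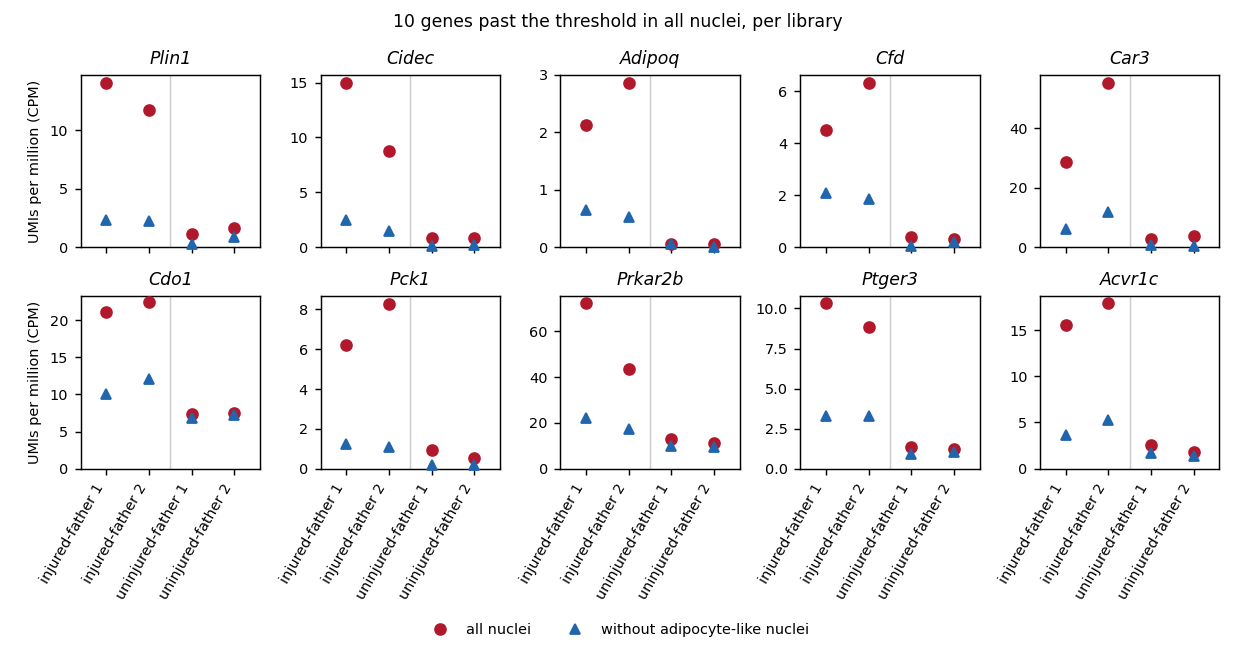
Level (y axis, CPM, each panel from 0) of the 10 genes called higher in all nuclei, in the 2 injured-father libraries and then the 2 uninjured-father libraries (x axis), with all nuclei summed (red circles) and without adipocyte-like nuclei (blue triangles). The injured-father circles stand above the uninjured-father ones in all 10 panels; blue triangles are lower and still stand above in the injured-father libraries.

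Several lipid synthesis genes differed between the 2 injured-father hearts in these sums as well. Fasn had 22.1 and 6.36 CPM in all nuclei of injured-father libraries 1 and 2, against 3.53 and 4.47 CPM in uninjured-father ones (1.81 ± 0.52, edgeR adjusted p = 0.499). Elovl6 had 58.4 and 14.1 CPM in the injured-father libraries, against 16.7 and 17.0 CPM in the uninjured-father libraries (1.07 ± 0.53, edgeR adjusted p = 0.766), so the groups overlapped. Thrsp had 27.3 and 10.3 CPM in the injured-father libraries, against 3.72 and 4.34 CPM in the uninjured-father libraries (2.19 ± 0.42, edgeR adjusted p = 0.236). Acaca had 233 and 125 CPM in the injured-father libraries, against 81.4 and 74.6 CPM in the uninjured-father libraries (1.17 ± 0.25, edgeR adjusted p = 0.320), and both injured-father hearts stood above both uninjured-father hearts. Acacb, given above, was not higher in injured-father library 1 than in library 2.

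The 10 calls rest on every uninjured-father library: without uninjured-father library 1, or without library 2, edgeR called 0 of the 37. Without injured-father library 1 or 2 it still called genes higher, and Plin4 lower without library 2, from fits with 1 library left in that group. With all 4 libraries limma-voom called 3 (Plin1, Acvr1c and Ptger3) and DESeq2 called 14. The numbers called over all genes in these fits are not given here, so the counts do not set the 37 genes apart.

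With adipocyte-like nuclei left out, edgeR called 0 of the 37 genes, against 0.0135% of 14854 genes called higher and 0% called lower. Of the 37, 35 passed the filter on low counts and Lep and Retn did not. An unadjusted p under 0.05 was reached by 15 of these genes and by 984 of all 14854, DESeq2 called 4 of them higher (Car3, Cidec, Cfd and Prkar2b) and 43 of all genes higher and 14 lower, limma-voom called 0, and with doublets kept edgeR called Car3. Without injured-father library 1 or 2 edgeR did call some of the 37, from fits with 1 library left in that group.

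The 3 smallest p-values outside the class belonged to genes of the fat cell. Car3 had 6.25 and 11.8 CPM (144 and 384 UMIs) in the injured-father libraries, against 0.764 and 0.448 CPM (24 and 7 UMIs) in the uninjured-father libraries (3.79 ± 0.43, edgeR adjusted p = 0.103). Cfd had 48 and 60 UMIs in the injured-father libraries, against 2 and 3 UMIs in the uninjured-father libraries (4.09 ± 0.53, edgeR adjusted p = 0.107). Cidec had 57 and 47 UMIs in the injured-father libraries, against 5 and 4 UMIs in the uninjured-father libraries (3.26 ± 0.51, edgeR adjusted p = 0.145). In these 3 genes the groups did not overlap.

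Low levels of fat cell genes remained outside the class. Summed over the 10 genes that never met the rule for own expression, the level outside the class was 28.0 and 28.8 CPM in injured-father libraries 1 and 2, against 6.52 and 7.74 CPM in uninjured-father libraries 1 and 2, where the class itself was 2.10% and 1.16%, against 0.191% and 0.103% of nuclei. Both were higher in the injured-father hearts, but between those 2 hearts the share of nuclei differed and the summed level did not follow it. Inside the class these 10 genes had 3859 and 6797 CPM in the injured-father libraries, against 3891 and 6953 CPM in the uninjured-father libraries. Over all nuclei they had 111 and 121 CPM in the injured-father libraries, against 12.4 and 14.3 CPM in the uninjured-father libraries. The part of these levels in the counts outside the class was not tested. Among the 10, Fasn overlapped between the groups, with 8.72 and 3.83 CPM outside the class in the injured-father libraries, against 3.31 and 4.09 CPM in the uninjured-father libraries, and so did Lep and Retn. Trarg1, a trace gene outside the 37, had 3.99 and 4.29 CPM there in the injured-father libraries, against 3.88 and 4.22 CPM in the uninjured-father libraries. Of the 16 genes that met the rule in no class, 11 had both injured-father libraries above both uninjured-father libraries outside the class. Of the 21 with own expression, 7 did and 2 (Mlxipl and Dgat2) had both below, against 19.7% of all genes with both above. Genes counted only in the libraries where they were higher had to differ, so these counts describe and do not test.

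The UMIs of trace genes outside the class lay mostly 1 to a nucleus. Of nuclei with a UMI of any of the 7 trace genes, 92.0% and 88.9% held only 1 in injured-father libraries 1 and 2. In uninjured-father libraries 1 and 2 it was 87.6% and 87.7%. For Tshr alone it ran from 76.5% to 85.2% over the 4 libraries. In injured-father library 2, 13 nuclei held over 2 UMIs of the 7 genes, and the highest count was 16. Adipoq was counted in 15 of 8078 and 17 of 9426 nuclei in injured-father libraries 1 and 2, against 2 of 9398 and 0 of 6784 nuclei in uninjured-father libraries 1 and 2, with 1 UMI in each such nucleus. Plin1 was counted once in each of 54 nuclei of injured-father library 1, and in injured-father library 2 it was counted once in 61 nuclei and over 2 times in 3 nuclei. In the uninjured-father libraries it was counted once in 8 and 12 nuclei, with 1 nucleus holding 2 UMIs in each library. Free RNA in the droplets and nuclei of 2 cells in 1 droplet were not tested as sources of these counts.

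In each of the 8 classes with at least 50 nuclei in every library, edgeR called 0 of the 37 genes. Of all genes tested, 0.00799% were called higher in cardiomyocyte-like, 0.0366% in endocardial-like, 0.00804% in fibroblast-like, 0.0962% in macrophage or monocyte-like and 0.0598% in pericyte-like nuclei, and 0% in B lymphocyte-like, smooth muscle-like and vascular endothelial-like nuclei. Called lower were 0.0481% in macrophage or monocyte-like nuclei and 0% in each of the other classes. An unadjusted p under 0.05 was reached by 12 of the 29 members of the 37 that were tested and 587 of 11348 genes in vascular endothelial-like nuclei, by 11 of 30 members and 391 of 12439 genes in fibroblast-like nuclei, and by 7 of 30 members and 547 of 12513 genes in cardiomyocyte-like nuclei. It was reached by 5 of 24 members and 433 of 10032 genes in pericyte-like nuclei, by 3 of 17 members and 504 of 8313 genes in macrophage or monocyte-like nuclei, and by 1 of 11 members and 295 of 5214 genes in B lymphocyte-like nuclei. In endocardial-like nuclei 0 of 12 members and 397 of 8191 genes reached it, and in smooth muscle-like nuclei 0 of 8 members and 190 of 4802 genes. DESeq2 called 2 in cardiomyocyte-like nuclei (Car3 and Prkar2b) and Car3 in fibroblast-like and vascular endothelial-like nuclei. limma-voom called Thrsp in pericyte-like nuclei. What these methods called over all genes in the classes is not given here.

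Car3 had the smallest p-value in 3 of the classes. In vascular endothelial-like nuclei it had 44 and 82 UMIs in the injured-father libraries, against 5 and 0 UMIs in the uninjured-father libraries (edgeR adjusted p = 0.116). In fibroblast-like nuclei it had 32 and 85 UMIs in the injured-father libraries, against 7 and 1 UMIs in the uninjured-father libraries (3.58 ± 0.54, edgeR adjusted p = 0.113). In pericyte-like nuclei it had 10 and 21 UMIs in the injured-father libraries, against 2 and 1 UMIs in the uninjured-father libraries (3.16 ± 0.71, edgeR adjusted p = 0.0803). Prkar2b had the smallest p-value in cardiomyocyte-like nuclei, with 61 and 84 UMIs in the injured-father libraries, against 20 and 13 UMIs in the uninjured-father libraries (2.07 ± 0.31, edgeR adjusted p = 0.163). Each of these had non-overlapping groups and each is a gene read as having no own expression in that class.

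Of the 18 genes with their own expression in cardiomyocyte-like nuclei, 12 overlapped between the groups. Both injured-father libraries stood above both uninjured-father libraries for 4 (Acsl1, Gpam, Adipor2 and Ghr) and below both for 2 (Mlxipl and Dgat2). Of all 12513 genes tested in cardiomyocyte-like nuclei, 30.3% did not overlap and 14.2% had both injured-father libraries above. Ghr had 1887 and 1761 CPM in the injured-father libraries, against 1713 and 1412 CPM in the uninjured-father libraries (0.24 ± 0.15, edgeR adjusted p = 0.9999). Mlxipl had 100.4 and 112 CPM there in the injured-father libraries, against 129 and 154 CPM in the uninjured-father libraries (edgeR adjusted p = 0.944). Dgat2 had 93.9 and 99.0 CPM in the injured-father libraries, against 122 and 113 CPM in the uninjured-father libraries. None of these 3 genes passed the edgeR test, although the groups did not overlap. In macrophage or monocyte-like nuclei Fabp4 had 73.8 and 72.0 CPM in the injured-father libraries, against 92.4 and 125 CPM in the uninjured-father libraries (-0.53 ± 0.25, edgeR adjusted p = 0.80).

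Another 59 genes of lipid handling were read in the same fits, among them transporters, enzymes of lipid synthesis and genes of hormone signalling. In all nuclei 56 of them passed the filter and edgeR called 0, with 6 at an unadjusted p under 0.05 and a median log2 fold change of 0.05. DESeq2 called 4 and limma-voom 0. The 2 smallest p-values were those of Pcx, pyruvate carboxylase, which supplies oxaloacetate for citrate (1.42 ± 0.20, edgeR adjusted p = 0.0989), and Pde3b, the phosphodiesterase by which insulin restrains lipolysis (0.77 ± 0.14, edgeR adjusted p = 0.204). In adipocyte-like nuclei edgeR called 0 of the 39 that passed, with 5 at an unadjusted p under 0.05; Lpin1, a phosphatidate phosphatase (1.31 ± 0.50), and G0s2, an inhibitor of adipose triglyceride lipase (1.96 ± 0.76), had the smallest p-values (edgeR adjusted p = 0.910 each).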

How the data were processed

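The data are single-nucleus RNA libraries of 4 hearts (2 from offspring of injured and 2 from offspring of uninjured fathers, grouped by their labels). Per the labels' protocols, Ter119 staining removed blood cells and a 3′ droplet kit was loaded for 10000 nuclei per library. The values deposited are unnormalized UMI counts (gene by barcode); the file headers name Cell Ranger 6.0.1 as the tool the authors ran, and Seurat 4.0 is named in the submitters' processing notes. The genome build, the gene annotation and the handling of intronic reads were not given in the sources used here. Of the 21884 gene identifiers, 21779 are in GENCODE M21 (GRCm38), which gave the gene positions; promoters are RefSeq's. The total per library was 29298446 and 40004944 UMIs for injured fathers, and 38102388 and 21723461 UMIs for uninjured fathers.

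Barcodes with under 500 UMIs, under 300 genes or 5% or more of their UMIs from mitochondrial genes were dropped, and doublets were marked by Scrublet through scanpy 1.11.5. Nuclei were clustered (3000 variable genes without the 37 genes, 25 of which were among them; 30 principal components, 20 neighbours, Leiden at resolution 1.0) and the 22 clusters were named "-like" from 17 marker lists. After the clusters were seen, a cluster scored endocardial but of high depth relative to its libraries was left unnamed. A cluster scored erythroid or neutrophil took its next-best name where its leading genes held markers of that class only. Otherwise it was left unnamed. UMIs were summed per class and library, filtered (filterByExpr, minimum count 10), scaled by TMM and tested two-sided by edgeR 4.0.16 (quasi-likelihood, Benjamini-Hochberg over all genes, threshold 0.05), after a check on simulated counts; limma-voom and DESeq2 were alternatives. CPM are unscaled. SE is the absolute log2 fold change over the square root of F. An exact permutation test of 2 against 2 libraries cannot give a p under 0.333. Intervals are exact (Clopper-Pearson, or conditional binomial for ratios of counts), cover counting error only, and a count of 0 allows 3 counts.

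All 37 genes could be named; values per library are given for those past the threshold, for the 3 smallest p-values where none passed, and for up to 4 per role; of the 59 other lipid genes, those past the threshold or the 2 smallest p-values. Other values given were chosen after they were seen. The genes, lists and tests were chosen with earlier results of these data known. Same-numbered libraries did not deviate together (r = 0.07 over 14891 genes), and no label says that the numbers pair the hearts.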

Additional observations from a re-analysis of the deposited data

How the results depend on the processing

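The count of the 37 genes called in all nuclei was 3 by limma-voom, 19 with no filter on low counts and 20 with the replicate number as a block, against 10 in the main fit. Outside adipocyte-like nuclei, where the main fit called 0, DESeq2 called 4, no filter 10, the replicate block 10 (9 higher and Mlxipl lower) and doublets kept 1. In cardiomyocyte-like nuclei DESeq2 called 2, no filter 4 and the block 3; in fibroblast-like nuclei DESeq2 called 1, no filter 4, the block 1 and resolution 2.0 called 1. In pericyte-like nuclei limma-voom called 1 and no filter 2; in vascular endothelial-like nuclei DESeq2 called 1, no filter 8 and the block 6; in adipocyte-like nuclei the block called 1 (Acacb). Of the 59 other lipid genes, DESeq2, no filter and the block called 4 each in all nuclei, the stricter nucleus filter called 1, and the block called 1 outside adipocyte-like nuclei. The adipocyte-like share kept its direction but lost its call with doublets kept (log2 fold change 3.85, adjusted p = 0.0532); with the block its adjusted p was 0.00012. The cause of these changes was not tested. Numbers called over all genes under other settings are given only for DESeq2 outside adipocyte-like nuclei. The remaining counts, also those with 1 library left out, therefore do not set the 37 genes apart.

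With 1 library left out, the lone library of a group is assumed to vary like the others. The calls then ranged from 0 to 24 in all nuclei, 0 to 11 outside adipocyte-like nuclei, 0 to 6 in cardiomyocyte-like, 0 to 4 in fibroblast-like, 1 to 4 in vascular endothelial-like and 0 to 2 in adipocyte-like nuclei, and were 0 throughout in the other 5 classes. For the other lipid genes they ranged from 0 to 5 in all nuclei, from 0 to 1 outside adipocyte-like nuclei and in fibroblast-like, pericyte-like and vascular endothelial-like nuclei, and were 0 in the other classes. The log2 fold change of the adipocyte-like share ranged from 2.93 to 3.96. Over 40 single-gene folds, 431 of 513 alternative values kept direction and call, 54 gained a call, 27 lost one, and Fabp4 in smooth muscle-like nuclei turned to -0.042 without injured-father library 2 and was 1.60 without injured-father library 1. The count with own expression elsewhere ran from 15 (20 CPM minimum) to 25 (2-fold excess), against 21; it was 22 without Trarg1 and 24 without Trarg1 and Tshr among the trace genes, both chosen after seeing the data. Depth limits the adipocyte-like values of uninjured-father hearts, which rest on 18 and 7 nuclei.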
